A study of Arabidopsis thaliana with 36 samples.

Results

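Leaves of the Arabidopsis ecotypes Columbia-0 (Col-0) and Wassilewskija (WS) were compared in growth light, before any change in light, by RNA-Seq of 3 libraries of each ecotype. The genes compared were those with at least 1 reading above 7 RPKM (the reads of a gene scaled by its length in kilobases and by the mapped reads of its library) in any of the 36 libraries of the series, which were 13817 of the 37336 genes in the table. Of these, 10951 passed through the 6 libraries compared here. A gene could pass through readings of 1 ecotype alone. The lowest maximum inside that limit was 7.02 RPKM and the highest outside it was 7 RPKM, and 26 genes lay within 0.05 RPKM above the limit.

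Col-0 and WS are natural inbred lines that served here as wild type. Plants of both ecotypes were grown hydroponically in a 12 h photoperiod in light with a photon flux density (PFD) set to 120 μmol m–2 s–1, at 23°C by day and 20°C by night, and a fully expanded leaf was taken from each of 3 plants at 0 min. The remaining 30 libraries came from leaves taken 15, 30, 60, 120 and 240 min after a move to 500 μmol m–2 s–1, by the methods from the same plants. Neither the clock time of sampling nor the age of the plants stands in the labels or methods.

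The RNA of both ecotypes was aligned to the Col-0 genome, so a WS read that did not align cannot be told apart from a transcript that was lower in WS, and genes with near-identical copies may exchange reads. In whole leaves, fewer cells of a type and less RNA per cell cannot be told apart. Reads in genes were between 22.44 and 30.37 M (M for megareads) in the Col-0 libraries. In WS they were 7.345 M in replicate 1, 31.55 in replicate 2 and 32.7 in replicate 3, so that 1 read in 1 kb was worth 0.1323 RPKM in WS replicate 1 and 0.03146 or less in the other WS libraries. Correlations of log2(RPKM + 1) were 0.949 to 0.978 within ecotypes and 0.865 to 0.934 between them, and the highest of these between ecotypes was that of Col-0 replicate 2 with WS replicate 3. All 6 mesophyll markers were detected, while 7 of 8 root markers and 5 of 6 flower markers stayed under 1 RPKM in all 6 libraries.

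As background, ecotypes of Arabidopsis differ in the chemical defence of their leaves. Glucosinolates are stored apart from myrosinases, the enzymes that cut them when a leaf is damaged, and specifier proteins then set whether isothiocyanates, nitriles or epithionitriles are formed. Ecotypes also differ in the receptors with a nucleotide-binding and a leucine-rich repeat domain (NLR), which recognise pathogen proteins inside the cell and often lie in tandem clusters, and in retroelements and the methylation of DNA near them.

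Of the 13817 genes, 911 (6.59%) differed between the ecotypes at an adjusted p under 0.05 by limma's moderated test on log2(RPKM + 1). WS was higher for 364 (2.63%) and lower for 547 (3.96%). The 3 readings of 1 ecotype all lay above those of the other for 892 of the 911, as they did for 27.8% of all genes tested. The means differed by more than 2-fold for 662 of them, 265 higher and 397 lower, and the median over all genes was a log2 difference of -0.04. Of the 1015 genes with a mean of at least 100 RPKM in either ecotype 56 were called, 15 higher and 41 lower in WS. When 1 library was left out, the number called lay between 538 (without Col-0 replicate 3) and 1053 (without Col-0 replicate 2), and it was 574 without the shallow WS replicate 1. The 3 libraries of an ecotype came from separate plants.

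**Figure D1:**
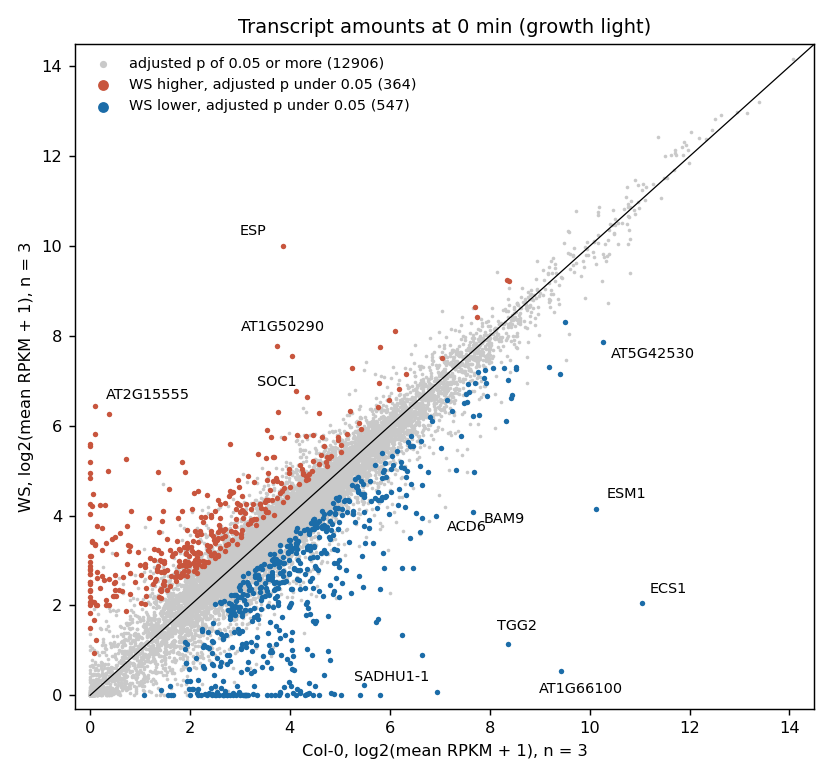
Mean transcript amount of each of the 13817 genes in Col-0 (x axis) and WS (y axis) at 0 min, as log2(mean RPKM + 1) of 3 libraries each, with genes called higher in WS in red, genes called lower in blue and the line of equal amounts in black. Most genes lie near the line up to the highest amounts, while ESP stands far above it and ECS1, AT1G66100, TGG2 and ESM1 far below it.

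Several of the large differences among abundant transcripts were in the breakdown of glucosinolates. Of 18 genes on that list, 14 were tested, with a median log2 difference of -0.23, beside -0.04 for all genes. Of the 14, 1 was higher and 2 were lower in WS, beside 2.63% of all genes higher and 3.96% lower. These 3 were ESP, ESM1 and TGG2, and the 250 bases before the annotated start of each are shown because these are the loci of the pathway at which the ecotypes differed. They were read from the Col-0 reference (TAIR10.1, from RefSeq), with no WS sequence used, 5′ to 3′ on the strand of the gene, with each TATAAA in capitals on either strand. ESP lies on the minus strand (window chr1:20173950-20174199), ESM1 on the plus strand (chr3:4729149-4729398) and TGG2 on the plus strand (chr5:9072458-9072707).
ESP: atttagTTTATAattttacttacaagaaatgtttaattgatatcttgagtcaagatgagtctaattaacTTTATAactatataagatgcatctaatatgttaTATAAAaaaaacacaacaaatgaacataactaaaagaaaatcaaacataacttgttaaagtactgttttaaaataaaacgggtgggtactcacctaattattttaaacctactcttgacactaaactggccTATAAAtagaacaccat
ESM1: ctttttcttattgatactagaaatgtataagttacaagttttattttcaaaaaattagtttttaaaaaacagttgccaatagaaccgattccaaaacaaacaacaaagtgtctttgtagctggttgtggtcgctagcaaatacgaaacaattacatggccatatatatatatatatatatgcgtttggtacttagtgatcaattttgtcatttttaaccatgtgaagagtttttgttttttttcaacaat
TGG2: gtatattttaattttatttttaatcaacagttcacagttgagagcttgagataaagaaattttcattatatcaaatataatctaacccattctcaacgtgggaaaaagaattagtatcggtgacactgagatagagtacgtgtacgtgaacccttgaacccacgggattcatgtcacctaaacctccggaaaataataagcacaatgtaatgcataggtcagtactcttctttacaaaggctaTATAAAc
Of 13396 such windows of tested protein-coding genes, 45.6% held TATAAA. It was found in the windows of ESP, where the match nearest to the start begins 17 bases before it, and TGG2, where it begins 7 bases before it, and not in that of ESM1.

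ESP (AT1G54040, chromosome 1, 20170715 to 20173949), the epithiospecifier protein that turns breakdown towards nitriles and epithionitriles, had 15.56, 16.39 and 8.81 RPKM in the Col-0 libraries and 742.98, 1108.63 and 1241.51 RPKM in WS. Every WS library was far above every Col-0 library. The mean was 75.9-fold higher in WS, 1031 ± 258 against 13.6 ± 4.16 RPKM (SD, n = 3), a log2 difference of 6.16 (SE 0.36, limma adjusted p = 2.77e-13).

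ESM1 (AT3G14210, chromosome 3, 4729399 to 4731847), the epithiospecifier modifier, which favours isothiocyanates over nitriles, had the opposite pattern. It had 1469.63, 960.58 and 907.95 RPKM in Col-0 and 15.19, 19.12 and 15.96 RPKM in WS, with no overlap. The mean was 66.4-fold lower in WS (log2 difference -5.94, SE 0.61, limma adjusted p = 4.3e-08).

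TGG2 (AT5G25980, chromosome 5, 9072708 to 9075777) encodes 1 of the pair of myrosinases of leaves. It had 371.32, 282.69 and 330.92 RPKM in Col-0 and 1.75, 1.13 and 0.74 RPKM in WS, so that it was close to undetected in every WS library. The log2 difference was -7.24 (SE 0.65, limma adjusted p = 2.51e-09). TGG1, the other myrosinase, lies close to it on the same chromosome (9079452 to 9082384) and had 1065.45, 939.27 and 1013.27 RPKM in Col-0 and 621.37, 1145.96 and 910.95 RPKM in WS, which overlap (log2 difference -0.21, adjusted p = 0.872). Each call of ESP, ESM1 and TGG2 held without any 1 of the 6 libraries and at all 5 later times.

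The enzymes upstream of these did not pass the test. None of the 24 tested genes of aliphatic glucosinolate synthesis was called by limma, none by the count-based alternative voom, and none had an unadjusted p under 0.05. Their median log2 difference was 0.24. The 14 tested genes of indole glucosinolate and camalexin synthesis gave the same counts of 0, with a median of -0.02. Other specifier proteins and later enzymes overlapped or lay close together. NSP5, a nitrile-specifier protein, had 45.71, 48.67 and 65.99 RPKM in Col-0 and 32.82, 36.74 and 43.63 in WS, and the nitrilase NIT1 had a log2 difference of -0.25 (adjusted p = 0.719).

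**Figure D2:**
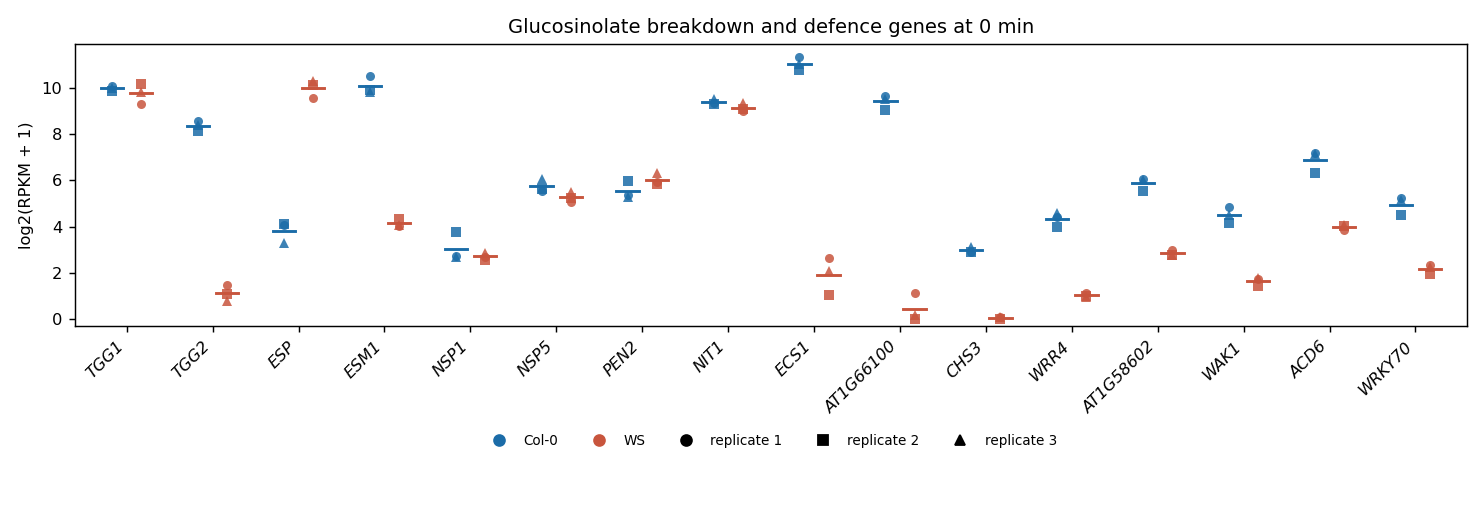
Transcript amounts of genes of glucosinolate breakdown and of defence in each library at 0 min, as log2(RPKM + 1), with Col-0 in blue, WS in red, marker shapes for the replicates and bars for the mean of the 3 log2 values. TGG2 and ESM1 are low and ESP is high in all 3 WS libraries while TGG1 overlaps, and the NLR and defence genes at the right are lower in WS without overlap.

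Some further abundant transcripts of Col-0 had almost no reads in WS. ECS1 (AT1G31580), annotated only by that name, had 2558.55, 1745.44 and 2070.48 RPKM in Col-0 and 5.18, 1.05 and 3.17 RPKM in WS, a log2 difference of -9.13 (limma adjusted p = 7.78e-12). AT1G66100, a thionin, which is a small antimicrobial peptide, had 801.28, 527.85 and 730.61 RPKM in Col-0 and 1.2, 0 and 0.15 in WS (log2 difference -8.96, limma adjusted p = 9.35e-14). AT5G42530, an uncharacterised protein, remained abundant in both, with 1470.69, 1253.68 and 986.07 RPKM in Col-0 and 289.78, 191.08 and 220.79 in WS, and was 5.29-fold lower.

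NLR genes that passed the test were all lower in WS on the list of known receptors. Of 43 on that list, 27 were tested and 8 (CHS3, WRR4, AT1G58602, RPP1, TTR1, RPP8, RPP5 and ADR1) were lower, none higher, against 3.96% of all genes lower. CHS3 and TTR1 had their highest readings of all 36 libraries, 7.57 and 7.19 RPKM, in Col-0 at 0 min. Their entry into the test thus rested on the ecotype in which they were higher. The list's median log2 difference was -0.35, 21 of the 27 were negative, and voom called 7. WRR4, a receptor known for resistance to white rust, had 20.14, 14.64 and 22.96 RPKM in Col-0 and 1.22, 0.99 and 0.93 in WS, an 18.4-fold difference (log2 -3.29, limma adjusted p = 2.11e-10). AT1G58602, annotated as an NB-ARC and leucine-rich repeat protein, had 66.07, 45.03 and 63.99 RPKM in Col-0 and 6.84, 5.82 and 5.85 in WS. It was 9.46-fold lower in WS (adjusted p = 5.41e-08).

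CHS3, whose receptor carries a further LIM domain, was at 6.39, 6.57 and 7.57 RPKM in Col-0 and at 0.07, 0.01 and 0.06 in WS. RPP1, read at its locus in the Col-0 reference (AT3G44480), was 2.64-fold lower in WS (16.47, 12.85 and 18.46 against 5.05, 6.27 and 6.78 RPKM). The helper receptor ADR1 had a log2 difference of -1.10 (limma adjusted p = 0.0167). By contrast ZAR1 had 26.19, 26.82 and 23.67 RPKM in Col-0 and 23.64, 24.64 and 27.7 in WS (log2 difference -0.01). The reads of such families may be shared between copies and diverged alleles.

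Over all tested genes annotated with disease resistance, NB-ARC or TIR-NBS, a set chosen after results had been seen that also holds proteins that are no NLR, such as AT5G35180 (a protein with a DUF1336 domain), 9 were higher and 23 lower in WS out of 79. That was 40.5% called, beside 6.59% of all genes, and the median log2 difference was -0.35. The 9 higher genes, AT5G35180 among them, were outside the list of known receptors. The largest log2 difference was that of AT4G16857 (chromosome 4, 9482429 to 9483913), with 0.56, 0.99 and 0.36 RPKM in Col-0 and 57.69, 27.57 and 26.42 in WS (log2 difference 4.47, limma adjusted p = 8.15e-11).

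AT4G16857 lies beside the cluster of RPP4, SNC1 and RPP5, and the longest run of neighbouring tested genes that were all called lies in that cluster (chromosome 4, 9506322 to 9547340). Its 5 genes did not move one way, and its length rested on calls that some fits did not keep. AT4G16957 was not called by voom, without Col-0 replicate 2, without WS replicate 2 or without WS replicate 3. Neither AT4G16957 nor AT4G16900 was called in a fit of the 6 libraries alone. AT4G16920 had 0.18, 0.21 and 0.17 RPKM in Col-0 and 9.96, 6.46 and 8.87 in WS, and AT4G16900 was 2.05-fold higher in WS. RPP5 had 7.84, 19.36 and 8.84 RPKM in Col-0 and 3.12, 3.61 and 3.78 in WS. SNC1, with 40.43, 42.3 and 33.83 RPKM against 12.82, 28.05 and 32.13, did not overlap but did not pass the test (adjusted p = 0.182).

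Neighbouring calls were found elsewhere too. After a called gene, the next tested gene along the chromosome was also called in 14.9% of cases (136 of 911), and after a gene that was not called in 6.05%. The neighbours moved in the same direction in 85 of the 136 pairs and in opposite directions in 51. A further run on chromosome 3 held AT3G44790, AT3G44800 and AT3G44805, which encode proteins with a TRAF-like domain, and the non-coding AT3G44798 between them. AT3G44790 had 0.03, 0.03 and 0.15 RPKM in Col-0 and 88.65, 37.66 and 39.39 in WS. AT3G44800 and AT3G44805 were higher in WS too (log2 differences 3.05 and 3.29), while AT3G44798 was lower, at 3.34, 6.28 and 4.92 RPKM in Col-0 and 0, 0 and 0.17 in WS.

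Few genes of salicylic acid defence were called. Of 25 tested, 2 were lower in WS and none higher, a share near the 6.59% of all genes called, with a median log2 difference of -0.42 and 21 negative. WRKY70, a transcription factor that acts in salicylic acid signalling, had 36.41, 21.52 and 34.27 RPKM in Col-0 and 4.05, 2.87 and 3.76 in WS (8.63-fold lower, limma adjusted p = 0.0103). ACD6, an ankyrin repeat membrane protein that promotes salicylic acid and for which ecotypes are known to carry different alleles, had 145.3, 77.98 and 137.8 RPKM against 13.4, 15.48 and 15.7 (adjusted p = 0.0262). WRKY70 was not called by voom, without Col-0 replicate 1 or without Col-0 replicate 3. ACD6 was not called by voom and kept its call in 1 of the 6 fits with a library left out. A fit of the 6 libraries alone called 8 genes of the list. The salicylic acid marker PR1 was at or near 0 in all libraries, and PR5 had 43.49, 20.84 and 30.95 RPKM in Col-0 and 11.36, 9.89 and 13.26 in WS (adjusted p = 0.493).

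Among 20 tested receptors at the cell surface, WAK1 alone was called, a share near the 6.59% of all genes called. WAK1 is a kinase bound to pectin in the cell wall. It had 27.66, 16.67 and 21.67 RPKM in Col-0 and 2.29, 1.74 and 2.38 in WS, 10.3-fold lower (limma adjusted p = 0.00256). FLS2, the receptor of bacterial flagellin, varied within both ecotypes, with 0.28, 4.43 and 0.82 RPKM in Col-0 and 0.93, 3.55 and 5.71 in WS. No gene of jasmonate synthesis and response was called out of 24 tested, by limma or by voom, and 2 had an unadjusted p under 0.05. Fitted alone, the 6 libraries gave 2 calls on the jasmonate list and 5 on that of cell surface receptors.

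**Figure D3:**
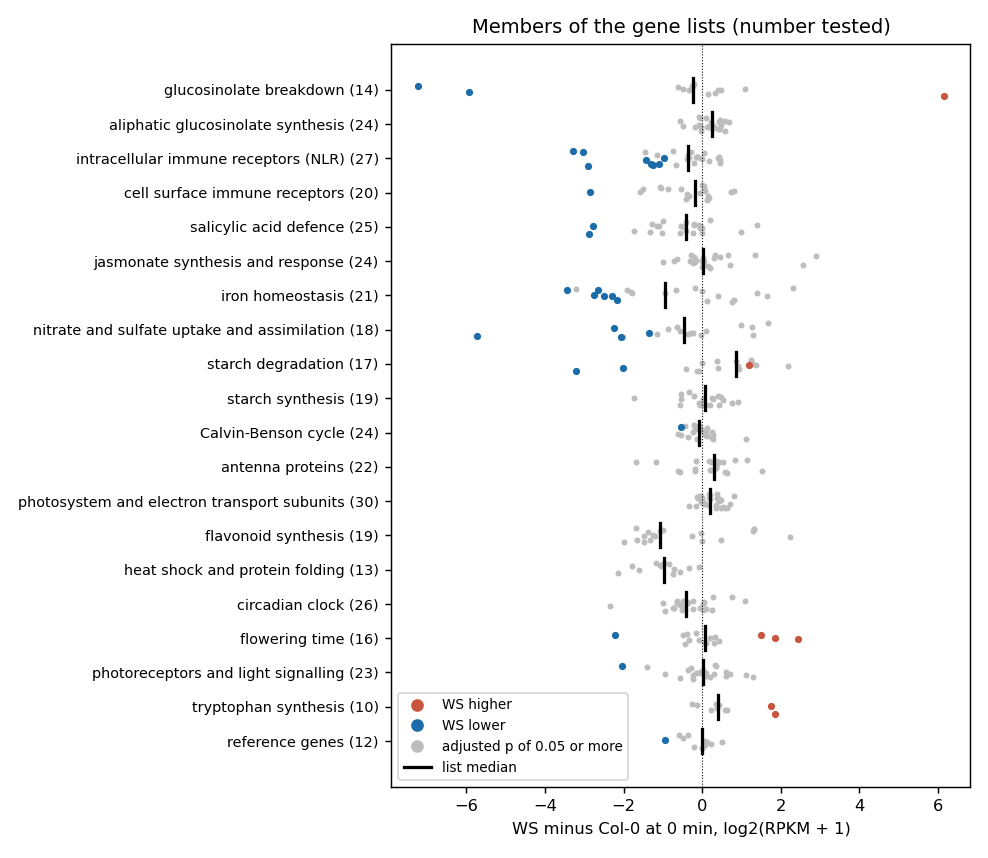
Log2 difference of WS minus Col-0 at 0 min, on the log2(RPKM + 1) scale, for each tested member of 20 gene lists (one point each, with vertical scatter for visibility), coloured where the adjusted p was under 0.05, with a black bar at the list's median. The NLR, iron, and nitrate and sulfate lists hold only lower calls, and the photosystem, antenna and aliphatic glucosinolate synthesis lists hold none.

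Genes of iron homeostasis formed the list with the second-largest number of calls after the NLR genes. Of 26, 21 were tested, 6 (AT1G47395, BHLH100, OPT3, BTS, PYE and AT1G47400) were lower in WS and none was higher, beside 3.96% of all genes lower, and the median log2 difference was -0.95. These transcripts are known to rise in iron shortage. BTS encodes a ubiquitin ligase that restrains that response, PYE and BHLH100 are transcription factors in it, and OPT3 is a phloem transporter.

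The differences rested on some of the Col-0 plants. PYE had 131.51, 6.65 and 85.81 RPKM in Col-0 and 5.35, 5.14 and 7.88 in WS, so that Col-0 replicate 2 lay among the WS libraries. BTS had 190.67, 18 and 86.5 RPKM in Col-0 and 11.8, 15.52 and 15.95 in WS, and OPT3 had 351.5, 41.88 and 217.98 against 19.86, 34.85 and 36.52. In both, replicate 2 of Col-0 was the lowest of its group and only just above WS. The limma adjusted p was 0.0316 for PYE, 0.011 for BTS and 0.00958 for OPT3.

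The low library was the same for the others. BHLH100 had 8.29, 1.8 and 23.96 RPKM in Col-0 and 0.57, 0.65 and 0.36 in WS. AT1G47395 and AT1G47400, neighbouring and alike genes that may share reads, had 23.69, 6.7 and 31.79 and 17.39, 3.36 and 25.56 RPKM in Col-0, and 2 or less in every WS library. FER1, a ferritin that stores iron and is known to rise with iron, went the other way with 16.97, 103.43 and 13.68 RPKM in Col-0 and 86.2, 125.05 and 300.49 in WS, but overlapped (adjusted p = 0.214). Without Col-0 replicate 2 limma called 9 genes of the list, without Col-0 replicate 3 none, without WS replicate 1 it called 1, and voom called 2. A fit of the 6 libraries alone called 1 gene of the list, and BHLH100, OPT3, BTS and PYE lost their call in it. None of the 6 genes called at 0 min was called at any later time.

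The 250 bases before the start of 3 of these genes are shown, since they hold the palindrome CACGTG, a G-box of the kind bHLH transcription factors are known to bind, printed in capitals. They come from the same Col-0 reference. BHLH100 lies on the minus strand (window chr2:17199455-17199704), OPT3 on the minus strand (chr4:9250344-9250593) and BTS on the plus strand (chr3:6273716-6273965).
BHLH100: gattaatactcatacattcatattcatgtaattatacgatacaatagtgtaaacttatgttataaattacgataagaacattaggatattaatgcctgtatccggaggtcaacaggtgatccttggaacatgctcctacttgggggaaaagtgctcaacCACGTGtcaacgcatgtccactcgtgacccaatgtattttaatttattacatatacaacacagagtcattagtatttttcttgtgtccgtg
OPT3: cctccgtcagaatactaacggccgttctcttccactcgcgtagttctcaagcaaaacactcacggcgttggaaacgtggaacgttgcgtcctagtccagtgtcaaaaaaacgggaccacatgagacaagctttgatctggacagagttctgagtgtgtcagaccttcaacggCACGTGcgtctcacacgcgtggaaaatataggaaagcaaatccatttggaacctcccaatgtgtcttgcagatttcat
BTS: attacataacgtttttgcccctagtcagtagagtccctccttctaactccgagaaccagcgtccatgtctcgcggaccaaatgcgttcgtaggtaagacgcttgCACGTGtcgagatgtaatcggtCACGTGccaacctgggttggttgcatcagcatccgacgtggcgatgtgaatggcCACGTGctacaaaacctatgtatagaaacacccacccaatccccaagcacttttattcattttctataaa
The motif occurred 1 time in BHLH100, 1 time in OPT3 and 3 times in BTS. It was in the windows of 3 of the 6 called genes of the list and of 5 of the 15 that were tested and not called, beside 8.02% of the 13396 windows of all tested protein-coding genes. A match is a description of letters in this window and says nothing of binding.

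Among genes of nitrate and sulfate uptake and assimilation, the call of LSU2 did not depend on 1 plant. LSU2, a gene known to respond to low sulfur, had 80.79, 71.82 and 142.8 RPKM in Col-0 and 0.16, 0.88 and 1.56 in WS (log2 difference -5.74, limma adjusted p = 9.5e-12). LSU1, a gene of the same family, had 1.91, 6.15 and 3.78 RPKM against 1.94, 0.57 and 4.69, which overlap. On the list of nitrate and sulfate uptake and assimilation 4 of 18 tested genes were lower and none higher, beside 3.96% of all genes lower, with a median log2 difference of -0.46.

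The other 3 were APR3 and APR2, which encode enzymes that reduce activated sulfate, and NRT1.1, a nitrate transporter. APR3 had 76.05, 84.21 and 138.71 RPKM in Col-0 and 23.46, 11.42 and 39.4 in WS (4.02-fold lower, adjusted p = 0.00851 by limma), and was not called without Col-0 replicate 3 or without WS replicate 2. APR2 had 213.49, 224.82 and 603.97 RPKM in Col-0 and 13.23, 100.92 and 189.34 in WS, where the shallow WS replicate 1 was lowest. Without that library APR2 was no longer called and its log2 difference was -1.15, beside -2.24 with it. It was also not called without Col-0 replicate 3 or by voom. NRT1.1 had 98.14, 38.54 and 100.98 RPKM in Col-0 and 21.93, 34.15 and 28.61 in WS (adjusted p = 0.0487), and lost its call in 5 of the 6 fits that left out 1 library.

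**Figure D4:**
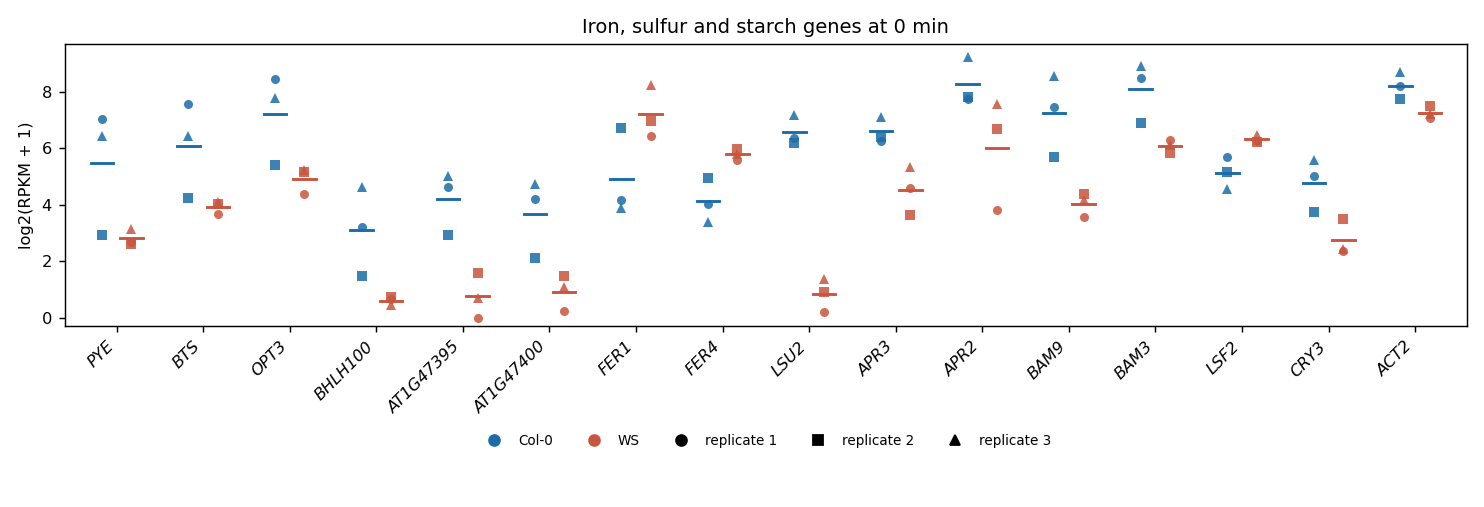
Transcript amounts of iron, sulfur, starch and further genes in each library at 0 min, as log2(RPKM + 1), with Col-0 in blue, WS in red, marker shapes for the replicates and bars for the mean of the 3 log2 values. Col-0 replicate 2 (blue squares) lies near the WS libraries for PYE, BTS, OPT3 and FER1, whereas all 3 Col-0 libraries lie far above WS for LSU2.

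Of the genes of starch degradation, 2 beta-amylases were lower in WS and a phosphatase was higher, out of 17 tested, beside 6.59% of all genes called, and the list's median log2 difference was positive, at 0.87. BAM9 (AT5G18670, annotated as beta-amylase 3 under the symbol BMY3) had 175.91, 51.15 and 376.08 RPKM in Col-0 and 10.84, 19.77 and 17.17 in WS, 12.6-fold lower (limma adjusted p = 0.000726). BAM3 (AT4G17090), the main chloroplast beta-amylase, had 360.31, 119.72 and 483.9 RPKM in Col-0 and 78.56, 56.76 and 69.11 in WS (4.72-fold lower, adjusted p = 0.00494). In both genes Col-0 replicate 2 was again the lowest of its group, and BAM3 was not called without Col-0 replicate 3 or in a fit of the 6 libraries alone. LSF2, a glucan phosphatase, had 50.35, 34.94 and 22.46 RPKM against 75.41, 74.63 and 87.21 (2.2-fold higher, adjusted p = 0.0489) and kept its call in 1 of the 6 fits with a library left out.

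PHS1, the plastid starch phosphorylase, had 12.06, 35.17 and 9.58 RPKM in Col-0 and 73.09, 63.38 and 98.39 in WS, which did not overlap, with an adjusted p of 0.0946. QQS, a gene known to affect leaf starch and to vary in DNA methylation between ecotypes, had 9.31, 24.51 and 18.43 RPKM in Col-0 and 0, 0.05 and 0.04 in WS (log2 difference -4.06, limma adjusted p = 4.73e-10).

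The pathways around the glucose-6-phosphate/phosphate translocator GPT2, which the study followed in high light, held few calls before the light changed. GPT2 had 0.43, 0.07 and 1.08 RPKM in Col-0 and 1.08, 1.57 and 1.14 in WS (log2 difference 0.62, SE 0.60, limma adjusted p = 0.664). The triose phosphate translocator TPT had 913.67, 920.67 and 596.1 RPKM in Col-0 and 916.16, 859.48 and 851.05 in WS. XPT, the pentose phosphate translocator, had 35.06, 27.17 and 40.34 RPKM in Col-0 and 9.42, 36.5 and 24.45 in WS, with the shallow WS replicate 1 lowest (adjusted p = 0.179). The transcription factor RRTF1 was listed at 0 in every library except WS replicate 2, at 0.02 RPKM.

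None of the 19 tested genes of starch synthesis, the 12 of cytosolic glycolysis and the 6 of the chloroplast glucose-6-phosphate shunt was called by limma or by voom, with 2, 2 and 1 at an unadjusted p under 0.05. With the 6 libraries fitted alone, 1 gene of starch synthesis was called, and 0 of glycolysis and of the shunt. Of the Calvin-Benson cycle, FBA3 was lower, 1 of 24, beside 3.96% of all genes lower. It was at 32.73, 22.26 and 36.93 RPKM in Col-0 and 16.94, 24.85 and 19.55 in WS, which overlap. Of sucrose synthesis, the phosphoglucomutase PGM3 was higher in WS, 1 of 18, beside 2.63% of all genes higher. It was at 44.42, 40.87 and 41.05 RPKM in Col-0 against 58, 64.97 and 55.46 in WS. FBA3 was not called by voom and PGM3 in none of the 6 fits with a library left out.

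The photosynthetic apparatus did not pass the test in any member. Of 30 tested subunits of the photosystems and electron transport none was called by limma or voom and none had an unadjusted p under 0.05. Of 22 antenna proteins none was called either, by limma or voom, with 2 at an unadjusted p under 0.05. LHCA5, of the antenna of photosystem I, had 241.18, 176.62 and 197.35 RPKM in Col-0 and 128.45, 145.14 and 141.42 in WS (adjusted p = 0.0741). The summed level of the antenna list was low in Col-0 replicate 3, at 39876 RPKM against 64760 to 73398 in the other libraries. None of the 72 chloroplast genes and the 6 mitochondrial genes tested was called.

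Flavonoid and heat shock genes had low medians without a call. Of 19 tested genes of flavonoid synthesis none was called by limma or voom, 7 had an unadjusted p under 0.05, and the median log2 difference was -1.06. CHS, which encodes chalcone synthase, had 519, 201.39 and 287.98 RPKM in Col-0 and 196.75, 255.02 and 76.16 in WS, which overlap. Of 13 genes of heat shock and protein folding none was called, 4 had an unadjusted p under 0.05, all 13 were negative and the median was -0.96. Col-0 replicate 2 was the lowest Col-0 library for most of the abundant genes of both lists, and without it limma called 5 flavonoid genes and 1 heat shock gene. With the 6 libraries fitted alone, 0 flavonoid genes and 1 heat shock gene were called.

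Of the 26 tested clock genes none was called by limma or voom, and 5 had an unadjusted p under 0.05. LHY, which peaks at dawn, had 203.47, 54.82 and 299.04 RPKM in Col-0 and 27.11, 44.58 and 19.11 in WS (log2 difference -2.35, adjusted p = 0.0964). Col-0 replicate 2 lay nearest to WS for this gene too. Among photoreceptors, CRY3, a cryptochrome of the DASH class, was the only one called of 23 tested genes of light perception and signalling, beside 6.59% of all genes called. It had 31.59, 12.48 and 47.26 RPKM in Col-0 and 4.14, 10.16 and 4.41 in WS, 4.88-fold lower (limma adjusted p = 0.00214). This call was lost in a fit of the 6 libraries alone. PHYD, a phytochrome, had 2.86, 2.45 and 2.79 against 2.77, 1.95 and 1.57 RPKM.

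Of 16 tested genes of flowering time, 3 (SOC1, FUL and SPL9) were higher and 1 (TEM2) was lower in WS, beside 2.63% of all genes higher and 3.96% lower. By voom 2 genes of the list were called, and SPL9 and TEM2 were not. SOC1, which integrates flowering signals, had 11.62, 33.41 and 13.05 RPKM in Col-0 and 83.39, 91.66 and 121.19 in WS, 5.1-fold higher (log2 difference 2.43, SE 0.43, limma adjusted p = 0.000277). It kept its call in all 6 fits with a library left out. FUL, a MADS-box gene that promotes flowering, had 0.47, 0.68 and 1.1 RPKM in Col-0 and 2.94, 7.8 and 6.08 in WS (limma adjusted p = 0.0083), and was called at all later times, but not at 0 min without WS replicate 2.

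SPL9, which promotes the adult phase, had 2.1, 3.09 and 1.32 RPKM in Col-0 and 8.7, 8.28 and 6.4 in WS. TEM2, a repressor of flowering, had 8.85, 25.62 and 4.37 RPKM against 1.99, 0.89 and 1.41. SPL9 and TEM2 each lost their call in 5 of the 6 fits with a library left out. FLC, the repressor acted on by cold, was at 0.37 RPKM or less in Col-0, was listed at 0 in all 3 WS libraries, and was not tested.

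PAI1 and PAI2 encode phosphoribosylanthranilate isomerase, an enzyme of tryptophan synthesis, and are near-identical copies between which reads may be split. As background, WS is known to carry a further PAI copy that the Col-0 reference lacks, and methylation of these genes in WS. PAI1 had 0.91, 0.95 and 1.12 RPKM in Col-0 and 9.75, 5.2 and 4.44 in WS (log2 difference 1.84, SE 0.19, limma adjusted p = 4.67e-08). PAI2 had 0.3, 0.6 and 0.61 RPKM against 3.91, 4.71 and 3.53. PAI3, which was not tested, went the other way, at 3.67, 3.26 and 3.19 RPKM in Col-0 and 0, 0 and 0.23 in WS.

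CMT2, a methyltransferase that methylates transposons, had 4.71, 6.71 and 3.67 RPKM in Col-0 and 23.64, 17.07 and 13.71 in WS, 3.61-fold higher (limma adjusted p = 0.00231). On the list of DNA methylation and small RNA it was the only gene called higher and QQS the only one called lower, of 14 tested. Beside these, 2.63% of all genes were higher and 3.96% lower, and the list's median log2 difference was -0.12. SADHU1-1, annotated as a pseudogene and a member of the Sadhu family of retroelements, had 119.02, 116.31 and 131.31 RPKM in Col-0 and 0.13, 0.03 and 0 in WS (limma adjusted p = 6.05e-20). Across classes of locus, 26 of 48 pseudogenes (54.2%), 18 of 51 transcribed pseudogenes (35.3%) and 22 of 63 non-coding RNAs (34.9%) were called, and 810 of 13396 protein-coding genes (6.05%). Of 87 small nucleolar RNAs, 15 were lower and none higher, in libraries made with a kit for messenger RNA. Because the strand setting of the counting is not given, reads of overlapping antisense genes cannot be told apart for non-coding loci.

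Some genes were near 0 in 1 ecotype at 0 min. Of the called genes, 28 had a mean of at least 7 RPKM in WS and under 0.5 in Col-0, and 50 the reverse. Of the 28, the non-coding AT2G15555 had the highest mean in WS, with 0, 0.17 and 0.04 RPKM in Col-0 and 100.11, 68.47 and 89.65 in WS. CSLA01, a relative of cellulose synthase, had 0.6, 0.17 and 0.06 RPKM in Col-0 and 32.3, 28.78 and 31.54 in WS (limma adjusted p = 0.00369, not called by voom), whereas the uncharacterised AT1G75945 had 34.77, 32.78 and 55.55 RPKM in Col-0 and 0 in all 3 WS libraries. CSLA01 was not absent from Col-0 in high light, where the means at 120 min were 668 RPKM for Col-0 against 1142 for WS. Called genes listed at 0 in all 3 libraries numbered 39 for WS and 23 for Col-0.

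Among called genes with a mean of at least 7 RPKM in both ecotypes, the largest ratio of WS to Col-0 after that of ESP was that of AT1G50290, an uncharacterised protein, with 13.63, 12.53 and 10.95 RPKM in Col-0 and 263.54, 182.2 and 210.98 in WS, 17.7-fold higher. CER1, which makes the alkanes of leaf wax, had 21.51, 5.22 and 4.98 RPKM in Col-0 and 74.08, 76.27 and 26.27 in WS (5.57-fold higher, limma adjusted p = 0.0367). It kept its call in 2 of the 6 fits with a library left out. PIP1C, a water channel of the plasma membrane, had 175.74, 133.16 and 171.9 RPKM in Col-0 and 20.15, 42.72 and 30.7 in WS. It was 5.14-fold lower (adjusted p = 0.00175) and remained so at all later times.

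Of 12 genes in common use as references, ACT2 alone was called, beside 6.59% of all genes. Either this actin gene or IDI2 served as the reference for qPCR in the study, which checked the amounts of both during its light and CO2 treatments. ACT2 had 293.68, 215.45 and 417.56 RPKM in Col-0 and 134.58, 181.64 and 147.73 in WS, 2-fold lower (log2 difference -0.95, SE 0.22, limma adjusted p = 0.00605). The call was lost without Col-0 replicate 3 and in a fit of the 6 libraries alone. Of the markers of cell types, 1 of 6 tested on the phloem list was called, beside 6.59% of all genes, and 2 of the 6 had a positive log2 difference. The called marker was SWEET11, a sucrose exporter, with 63.62, 70.57 and 152.67 RPKM in Col-0 and 13.64, 39.9 and 46.28 in WS (limma adjusted p = 0.0312). It was not called by voom or in a fit of the 6 libraries alone. The summed level of the phloem list was 239.53 to 387.57 RPKM in Col-0 and 124.27 to 269.94 in WS. On the epidermis and trichome list 4 markers were tested, of which CER1 was called higher in WS and 3 had a negative log2 difference. The part of tissue make-up in the results was not tested.

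Most differences seen in growth light were also there in high light, in leaves that the methods place on the same plants and that are therefore not independent of 0 min. Of the 911 genes, 788 (86.5%) kept their direction at all 5 later times, as did 36% of all genes tested. The same direction was called at all 5 times for 306 of them (33.6%), and at none for 155 (17%). The genes called between the ecotypes numbered 775 at 15 min (5.61%), 1147 at 30 min (8.3%), 1503 at 60 min (10.9%), 839 at 120 min (6.07%) and 652 at 240 min (4.72%). Of the 252 genes with a log2 difference of at least 2 in size, 163 were called at all 5 times, and of the 659 with a smaller one, 143.

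**Figure D5:**
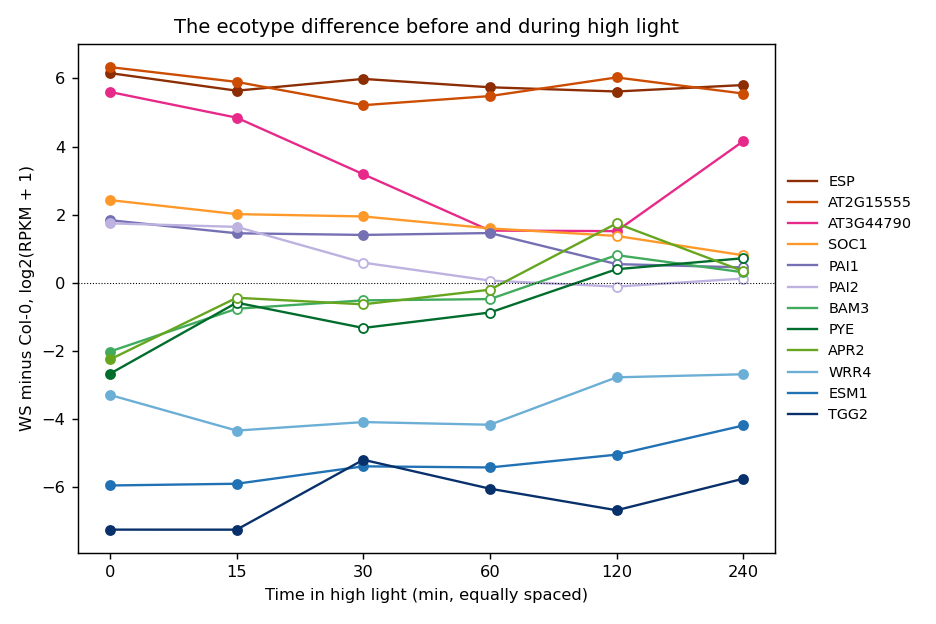
Log2 difference of WS minus Col-0, on the log2(RPKM + 1) scale, at 0 min and at 5 times in high light for 12 genes, with filled points where limma's adjusted p was under 0.05 and open points elsewhere. ESP, AT2G15555, WRR4, ESM1 and TGG2 stay called at all times, PYE, BAM3 and APR2 are called at 0 min only, and AT3G44790 falls to 60 and 120 min and is high again at 240 min.

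By gene, ESP was at 1149 RPKM or more in WS and at 36.4 or less in Col-0 at every later time, and LSU2 and WRR4 were called throughout. BAM3, APR2, PYE, BTS, OPT3 and BHLH100 were called at none of the later times. The mean of BAM3 at 15 min was 260 RPKM for Col-0 plants against 134 for WS plants, and at 240 min it was 314 against 356. The change of the ecotype difference from 0 min was itself significant for 51 genes at 1 time or more, and for none of these 6 genes.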

How the data were processed

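Messenger RNA of 1 fully expanded leaf per plant was sequenced from stranded libraries (TruSeq Stranded mRNA). Reads were trimmed with Trimmomatic 0.32, aligned with STAR 2.3.0e to TAIR10 and counted with featureCounts, and the authors deposited them as RPKM. How reads with several alignments or on the opposite strand were counted is not given in the sources used here. In each of the 36 libraries 99.76% or more of the low values examined were whole multiples of 1 read, within 0.1 read, which gave the depth of each library. 0 columns of other samples were left out.

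Genes with a reading above 7 RPKM were fitted as log2(RPKM + 1) with limma 3.58.1 (R 4.3.3, Python 3.11.15, pandas 2.3.3) over all 36 libraries in 12 groups, with a trend and 24 residual degrees of freedom, and p-values were adjusted over all 13817 genes by Benjamini-Hochberg. The fit held no term for the plant, though the methods place the leaves of all times on the same plants. Its 24 degrees of freedom thus count repeated leaves of a plant as separate. A fit of the 6 libraries at 0 min alone kept 554 of the 911 calls. A difference understates the change of genes near the pseudocount of 1 RPKM, and no ratio is given where a mean was under 1 RPKM. The fit was also run on simulated data. These held independent libraries with no effect of the plant, so they cannot show what repeated leaves do to the p-values.

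Named genes were the largest and most significant differences with no overlap, at all levels, with both means at 7 RPKM or more and at 100 RPKM or more, up to 5 called genes per list, and genes the study names. Other genes, among them those not called that are named beside them, were chosen after their values were seen. The genes compared and the 38 lists were chosen with earlier results of these data known. Alternatives were the pseudocount, filters, scaling, the libraries fitted, a replicate block, voom on recovered reads and each library left out.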

Additional observations from a re-analysis of the deposited data

Results flagged for a closer look

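For some genes the ecotype difference itself changed between 0 min and a later time by limma's interaction term on log2(RPKM + 1), and each value here is the later difference minus that at 0 min, with 3 libraries per ecotype and time. In the TRAF-like cluster, AT3G44790 changed by -2.41 at 30 min (adjusted p = 0.0389), -4.07 at 60 min (adjusted p = 1.15e-06) and -4.08 at 120 min (adjusted p = 2.11e-06), with WS means of 8.31, 1.99 and 2.22 RPKM at those times and 20.2 RPKM at 240 min. Its neighbours moved with it, AT3G44800 by -2.41 at 60 min (adjusted p = 0.000884) and -2.35 at 120 min (adjusted p = 0.00196), and AT3G44805 by -2.03 (adjusted p = 0.00992) and -1.96 (adjusted p = 0.0208).

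PAI1 changed by -1.29 at 120 min (adjusted p = 0.0457) and -1.38 at 240 min (adjusted p = 0.0279), where its Col-0 means were 4.2 and 3.47 RPKM and its WS means 6.58 and 5.11 RPKM. PAI2 changed by -1.86 at 120 min (adjusted p = 0.0457), with means of 7.93 RPKM in Col-0 and 6.7 in WS. AT3G05945, an RNA near 0 in WS, changed by 2.13 at 120 min (adjusted p = 0.00365), when its Col-0 mean was 8.86 RPKM.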

How the results depend on the processing

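No called value reversed. Of the 76 named genes that were called, 51 kept their call under every alternative that tested them, other than leaving out a library, and 49 under those too. A gene removed by a filter, such as PAI2 with the filter applied at 0 min only, was not counted as losing its call. With a filter of 1 RPKM in 3 libraries, 1417 genes were called (618 higher in WS), 1239 with the same sign at all later times, 1235 at 15 min, 1435 at 120 min and 1117 at 240 min, and 94 changed in their difference, where 51 did in the analysis reported. With no filter these were 1483 (682 higher), 1268, 1421, 1465, 1249 and 105. The number that changed was 31 with a pseudocount of 0.1 RPKM and 22 with the filter applied at 0 min only. By voom on recovered reads 602 genes were called, 319 of them lower, and 9 changed, and the share of calls that were higher was 47.01%, beside 40.0%. A fit of the 6 libraries alone called 844, of which 554 were calls of the fit over 36 libraries.

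Leaving out each library gave 538 to 1053 calls, 218 to 419 higher and 314 to 634 lower, 506 to 848 with the same sign later and 29 to 48 that changed. In high light the calls then lay between 750 and 799 (15 min), 1078 and 1180 (30 min), 1435 and 1509 (60 min), 788 and 864 (120 min) and 625 and 675 (240 min). The lowest counts of calls were without Col-0 replicate 3 (538) and without WS replicate 1 (574). The cause was not tested. A pairing of plants by replicate number was not evident. Correlations of same-numbered deviations were 0.33, -0.28 and 0.03, and not every library correlated best with its own number. With 3 libraries per ecotype, such values are too few to exclude a pairing. With the replicate number as a block 933 genes were called. WS replicate 1, with 7.345 M reads, limits what can be seen of low transcripts in WS.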
